A study of Homo sapiens with 9 samples.

Results

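Interferon-stimulated genes were examined in RNA-sequencing (RNA-seq) data from MOLM13 cells, a human acute myeloid leukemia line with monocytic features, after knockdown of the RNA helicase DDX41. The set held 51 genes and was taken by gene symbol from a count table of 30017 rows. It covered the signal factors STAT2, IRF1, IRF7 and IRF9, RNA sensors, antiviral effectors and the ISG15 system. Of the 51 genes, 43 passed a filter on low counts and were tested among 12712 genes, and the other 8 are described by their counts. Cells had been transduced with a GFP-marked pLKO lentivirus carrying a control short hairpin RNA (sh-Control) or 1 of 2 hairpins against DDX41 (shDDX41 #1 and shDDX41 #2), and GFP-positive cells were sorted on day 4. Each group had 3 libraries, labelled A, B and D. All 3 groups, the control included, were transduced cells of a single line, and each DDX41 hairpin is a single sequence, so an effect of DDX41 loss and an effect of that hairpin on other transcripts cannot be told apart. The labels do not say whether the libraries of a group came from separate transductions, so p-values measure only the spread between these libraries.

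Interferons are secreted proteins that warn cells of infection. Type I interferons bind the receptor pair IFNAR1 and IFNAR2, the kinases JAK1 and TYK2 phosphorylate STAT proteins, and STAT2 joins IRF9 in the complex ISGF3, which binds interferon-stimulated response elements in promoters. Interferon gamma acts through gamma-activated sites, and IRF1 is a known target of that arm. Many of the products sense or destroy viral RNA, and in myeloid cells a part of them is made at a basal level with no infection.

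Promoter sequence was compared first, because many of these genes are known for a shared promoter element. The RefSeq promoter table (GRCh38.p14, 250 bases before to 50 after each start site) held 41 of the 51 genes, with DDX58 matched under its newer symbol RIGI. IRF7, OAS2, OASL, IFIT2, IFITM2, MX2, GBP2, USP18, TRIM22 and LY6E were not in it. The letters GAAANNGAAA, or TTTCNNTTTC on the other strand, stood for the interferon-stimulated response element and occurred in 26 of the 41 promoters (63.4%) against 996 of 27305 promoters in the whole table (3.65%). The letters TTCNNNGAA, the same on both strands, stood for the gamma-activated site and occurred in 10 of the 41 (24.4%) against 2152 of all promoters (7.88%). Both motifs occurred in 6 of the promoters, and overlapping matches were allowed. A match describes the letters in this window only.

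The stretches below are from the genes that the comparisons turn on, with up to 10 bases on each side of a match. They are written 5′ to 3′ along the gene, with the match in capitals. The first 8 genes rose with shDDX41 #2 and hold a response element upstream of the start site. IFIT3 differed between the hairpins, PARP14 was lower with each, and IRF1 and IRF9 hold a gamma-activated site but no response element by these letters.
ISG15, chr1:1013380-1013409, plus strand: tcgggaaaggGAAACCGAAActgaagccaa
IFI6, chr1:27672288-27672317, minus strand: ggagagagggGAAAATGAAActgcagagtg
LGALS3BP, chr17:78979962-78979991, minus strand: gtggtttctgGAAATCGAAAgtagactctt
DDX60L, chr4:168480523-168480552, minus strand: gtggagaaaaGAAACCGAAActaactccct
DDX60, chr4:168318786-168318815, minus strand: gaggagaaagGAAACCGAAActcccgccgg
IFIH1, chr2:162318686-162318715, minus strand: gaagagaatcGAAACAGAAAccaaagtcag
BST2, chr19:17405741-17405770, minus strand: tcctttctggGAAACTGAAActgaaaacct
SAMD9, chr7:93118096-93118125, minus strand: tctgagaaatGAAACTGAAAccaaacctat
IFIT3, chr10:89327865-89327894, plus strand: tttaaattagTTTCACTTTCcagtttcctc
PARP14, chr3:122680800-122680829, plus strand: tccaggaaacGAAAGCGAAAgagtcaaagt
IRF1, chr5:132490879-132490907, minus strand: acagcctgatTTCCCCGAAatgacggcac
IRF9, chr14:24161192-24161220, plus strand: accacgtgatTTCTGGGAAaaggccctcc

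**Figure D1:**
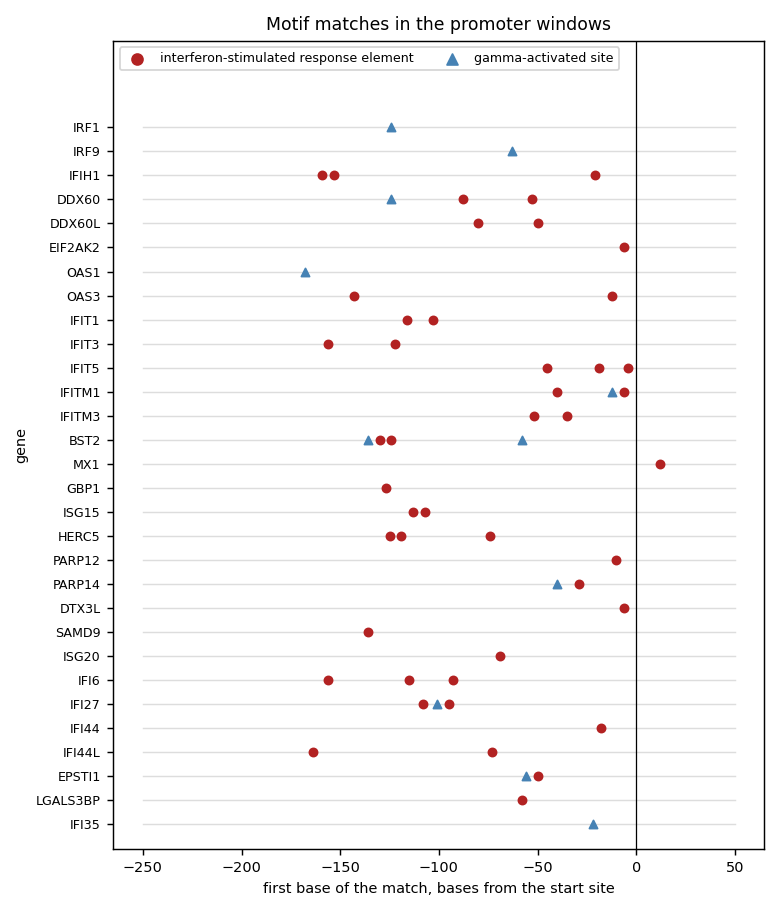
Distance in bases from the start site to the first base of each motif match, for the 30 genes of the set with at least 1 match. Circles are interferon-stimulated response elements and triangles gamma-activated sites. Every match begins within the 168 bases before the start site, except that of MX1, which begins 12 bases after it.

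The response element was then set against the calls described below. Of the 12 genes called higher with shDDX41 #2 that had a promoter in the table, 9 held the response element. None of the 3 called higher with shDDX41 #1 (STAT2, IRF9 and SP110) held it, and 3 of the 5 called lower with shDDX41 #1 did. Among the genes of the set that were tested and had a promoter, 18 of 33 (54.5%) held it. These counts are small and were not tested.

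Libraries held 16385238 to 20510032 counts, so a count of 3 corresponded to 0.149 to 0.182 CPM, the count scaled by library size. Values of a group are given below in the order of libraries A, B and D. The target DDX41 stood at 117, 115 and 113 CPM with sh-Control, 12.2, 12.9 and 9.95 CPM with shDDX41 #1 and 38.9, 39.9 and 42.5 CPM with shDDX41 #2, which is 9.80-fold and 2.84-fold lower than in sh-Control (log2 fold changes -3.29 and -1.51). Library D of shDDX41 #1 stood apart from A and B of its group, with a chi-square per degree of freedom of 17.7 and 19.2 against 2.91 between A and B. Of 10 myeloid marker genes, 9 were above 5 CPM in every library, LYZ at 838 to 1833 CPM, while ANPEP stayed at or below 1.13 CPM. Of 12 marker genes of T, B, erythroid, epithelial and plasmacytoid dendritic cells, 9 did not exceed 1 CPM in any library, and MS4A1 and HBB had 0 counts. Their summed level was between 16.6 and 20.96 CPM for sh-Control, between 18.1 and 19.3 CPM for shDDX41 #1 and between 20.98 and 22.4 CPM for shDDX41 #2, most of it from the keratin gene KRT18.

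In control cells the set was expressed over a wide range. Divided by exon length, 4 genes exceeded 10 CPM per kilobase, namely the virus tether BST2 (60.1), the membrane-anchored LY6E (57.3), the entry restriction factor IFITM2 (25.5) and the RNA-editing enzyme ADAR (25.5). Another 24 lay from 1 to 10 and 23 lay below 1, with a median of 1.43 CPM per kilobase over the 51 genes. Several classical reporters of an interferon response were low: MX1 was at 0.165 CPM per kilobase, IFIT1 at 0.126, RSAD2 at 0.128, OAS2 at 0.0695 and IFI44L at 0.0145. The reporter ISG15 was not, at 6.45 CPM per kilobase and rank 7 of the 51 genes. GBP1 had 0 counts in all 9 libraries. Lengths are unions of annotated exons, so a gene with long unused exons is understated.

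**Figure D2:**
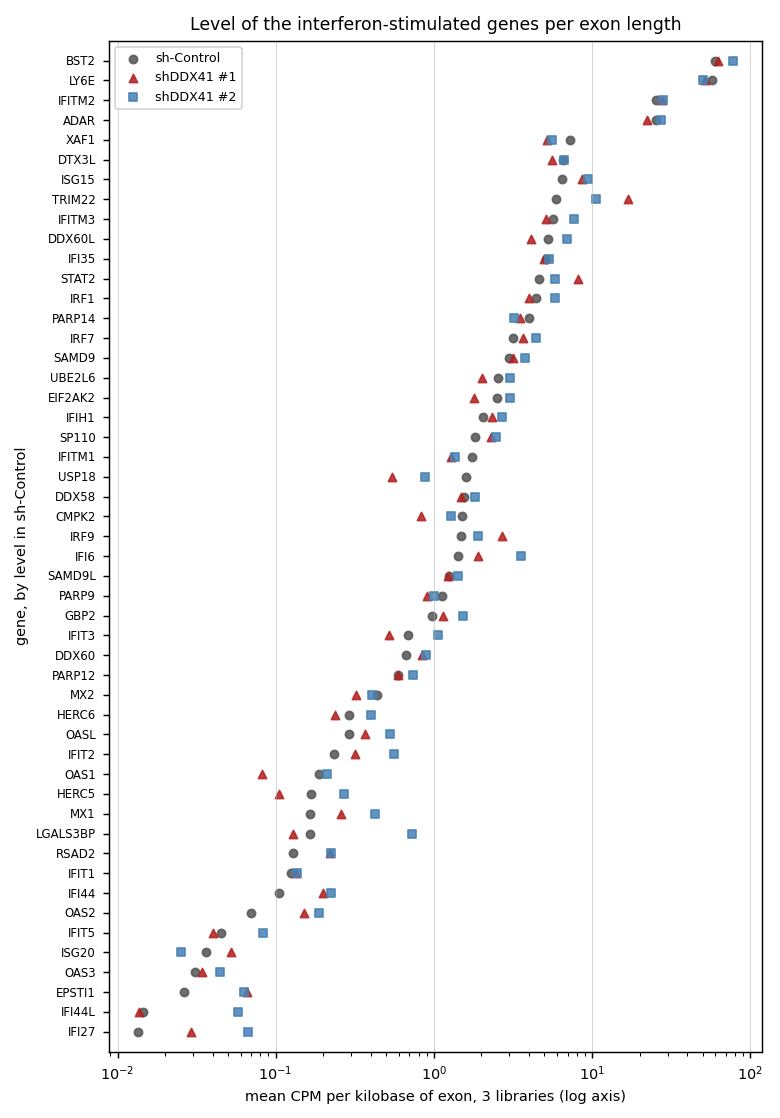
Mean level per kilobase of exon (log axis) of 50 genes of the set in sh-Control, shDDX41 #1 and shDDX41 #2 (3 libraries each), ordered by sh-Control. BST2 and LY6E lie near 60 CPM per kilobase in sh-Control and GBP1, at 0, cannot be drawn on a log axis.

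The ligands themselves were next to undetected. Of 21 interferon genes (13 alpha genes, IFNB1, IFNW1, IFNE, IFNK, IFNG and 3 lambda genes), 20 had 0 counts in every library. IFNL1 had 1 count in shDDX41 #1 library D and 1 in shDDX41 #2 library A. Interferon mRNA was therefore not detectable at this depth, with 3 counts allowing up to 0.182 CPM for each gene in a library. These limits cover counting error only.

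To ask how the set responded to each knockdown, every hairpin was compared with sh-Control by edgeR's quasi-likelihood test, and a gene was called at an adjusted p under 0.05 over all 12712 genes. With shDDX41 #1, the stronger knockdown, 4 of 43 tested genes were higher and 7 lower. TRIM22, STAT2, IRF9 and SP110 rose, and XAF1, USP18, DDX60L, EIF2AK2, CMPK2, MX2 and PARP14 fell. Over all genes tested, 23.7% were called higher and 24.1% lower in this contrast, beside 9.30% and 16.3% of the set. The share lower depended on the processing: with no filter on low counts, 9 of 50 genes of the set (18.0%) were lower beside 15.9% of all genes, and with a replicate block 10 of 43 (23.3%) beside 25.1%. The median log2 fold change of the 43 genes was -0.05, beside 0.01 over all tested genes. With upper quartile scaling, which moved the table's calls to 3849 higher and 2453 lower, 8 of the 43 (18.6%) were higher beside 30.3% of all genes, and the median was 0.03.

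With shDDX41 #2, the weaker knockdown, 18 of the 43 were higher and 3 lower. LGALS3BP, TRIM22, IRF1, DDX60L, IFI6 and IRF7 were the rises with the smallest adjusted p, and XAF1, PARP14 and USP18 fell. Here 11.6% of all tested genes were called higher and 13.4% lower, against 41.9% and 6.98% of the set, and the median log2 fold change was 0.36 beside -0.01 for all tested genes. Relative to the sh-Control mean, the median level of the 43 genes was -0.01, -0.08 and 0.12 on the log2 scale in sh-Control A, B and D, -0.04, -0.08 and -0.01 in the shDDX41 #1 libraries and 0.32, 0.33 and 0.39 in the shDDX41 #2 libraries. The shDDX41 #2 libraries thus lay above the other 6. The number of rises depended on single libraries: it was 9 of 44 without shDDX41 #2 D, where 7.54% of all genes were called higher, and 11 of 46 without sh-Control B, where 8.23% were. With no filter on low counts, 20 of 50 genes (40.0%) were higher beside 8.68% of all genes.

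Some markers of cell type moved with this group as well. Of the 10 myeloid marker genes, 3 rose with shDDX41 #2 and 0 fell, namely the lysozyme gene LYZ (1.95-fold, adjusted p 1.6e-07), the granule peroxidase gene MPO (1.504-fold, adjusted p 2.8e-05) and the integrin gene ITGAM (1.43-fold, adjusted p 0.0018). Over all tested genes, 11.6% were called higher and 13.4% lower with this hairpin. With shDDX41 #1, CD33, FLT3 and HOXA9 rose and CSF1R and MEIS1 fell, CSF1R by the most (1.82-fold lower, adjusted p 3.8e-05). Over all tested genes, 23.7% were called higher and 24.1% lower with shDDX41 #1, so 3 rises and 2 falls of 10 lay near the shares of the table. The summed markers of other cell types were also highest with shDDX41 #2. The part of these markers in the differences of the set was not tested.

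The filter asked for a level of 0.584 CPM in at least 3 libraries. OAS1, OAS2, IFIT1, HERC5, RSAD2 and LGALS3BP exceeded it in 4 to 7 of the 9 libraries, and the other 37 in all 9. LGALS3BP and HERC5 exceeded it in 3 shDDX41 #2 and 2 sh-Control libraries, so they were tested only through the group in which they were high, and the calls of these genes rest on that choice. Those 37 had at least 10 counts in every library. Of them, 4 rose and 7 fell with shDDX41 #1 (10.8% and 18.9%, beside 23.7% and 24.1% of all tested genes). With shDDX41 #2, 16 rose and 3 fell (43.2% and 8.11%, beside 11.6% and 13.4%). In bulk RNA, a change in the share of cells that make a transcript and a change in its amount per cell cannot be told apart. Both contrasts share the 3 sh-Control libraries, so a high or low control library moves both.

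**Figure D3:**
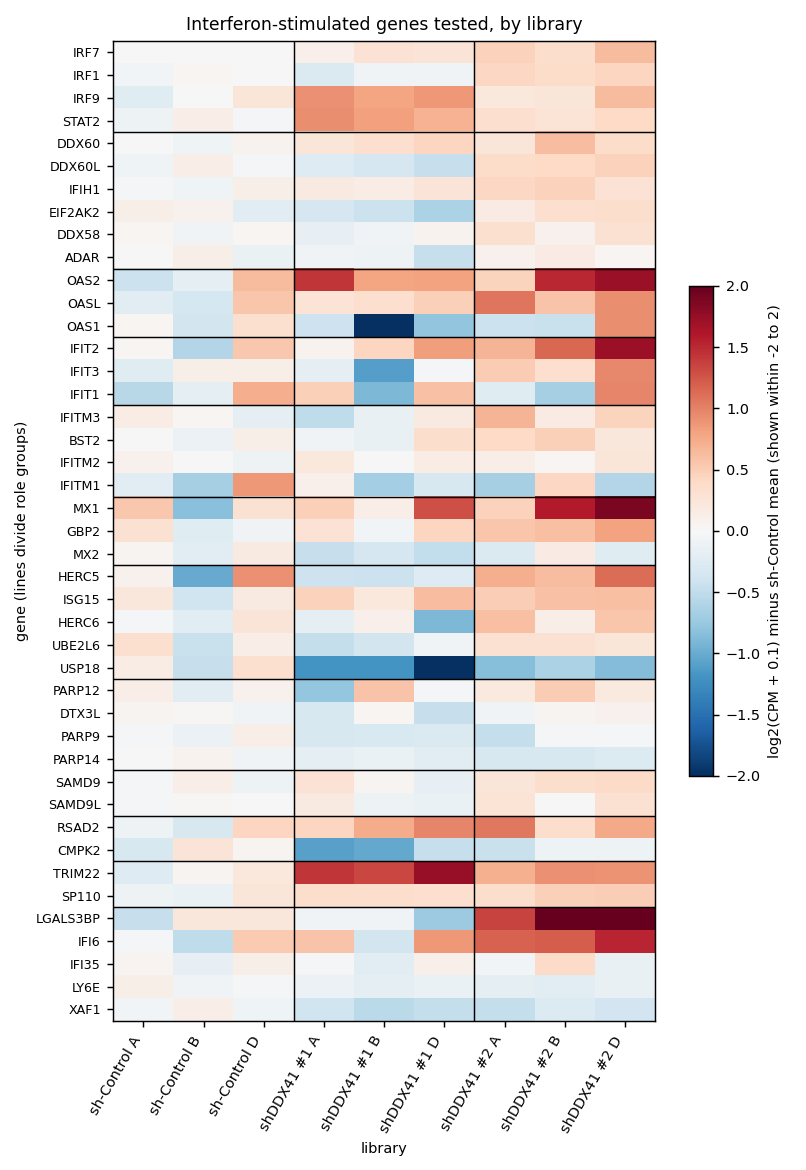
Level of the 43 tested genes in each of the 9 libraries, as log2(CPM + 0.1) minus the sh-Control mean, with red above and blue below and lines dividing the role groups. The 3 shDDX41 #2 columns are red for most genes (medians 0.32, 0.33 and 0.39), while the shDDX41 #1 columns mix both colours.

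**Figure D4:**
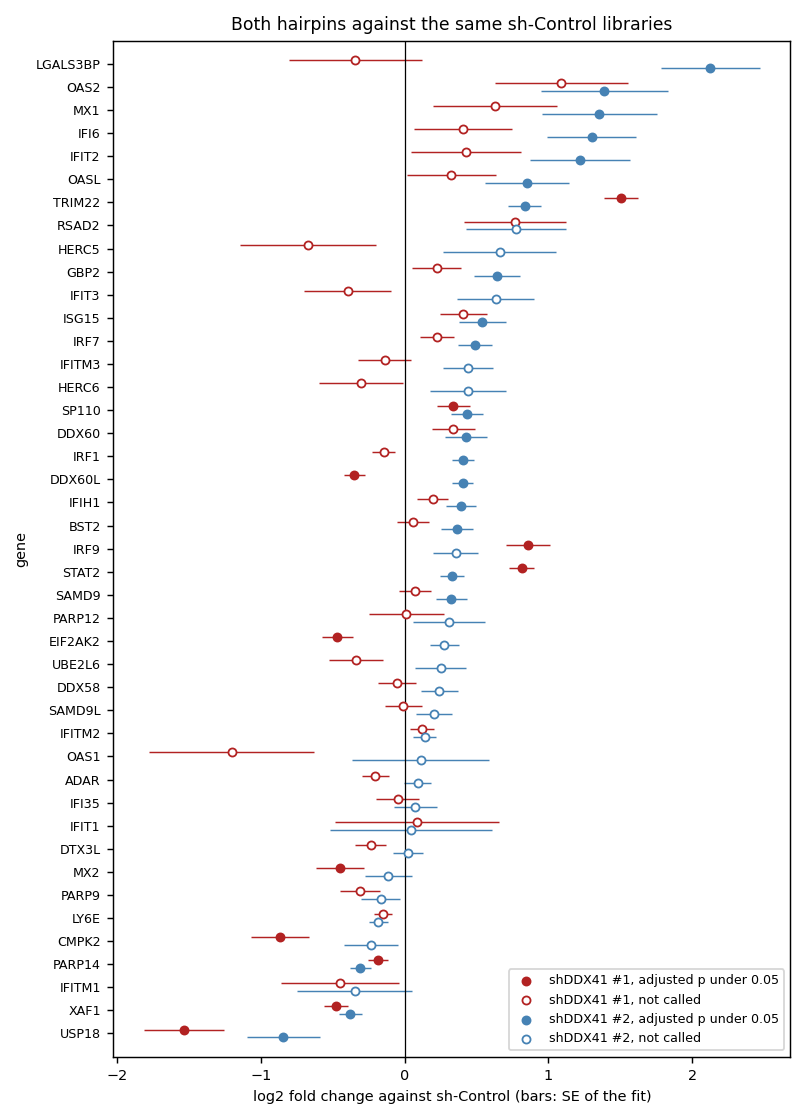
Log2 fold change of each tested gene against the same sh-Control libraries, with SE bars, for shDDX41 #1 (red) and shDDX41 #2 (blue), filled where called. LGALS3BP, at 2.12 with shDDX41 #2 and -0.34 with shDDX41 #1, and USP18, at -0.85 and -1.53, mark the ends of the range.

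Of the 4 factors that carry the signal, 2 rose with shDDX41 #1 and 3 with shDDX41 #2. Over all tested genes, 23.7% were called higher with shDDX41 #1 and 11.6% with shDDX41 #2, and 4 genes are too few to set against these shares. STAT2, the ISGF3 subunit particular to type I and III signaling (chr12:56341597-56360155, minus strand), was at 26.3, 30.8 and 27.6 CPM with sh-Control, 53.7, 49.6 and 45.5 CPM with shDDX41 #1 and 35.4, 34.0 and 37.0 CPM with shDDX41 #2. It rose with shDDX41 #1 (log2 fold change 0.81, SE 0.0841, adjusted p 2.0e-06) and with shDDX41 #2 (log2 fold change 0.33, SE 0.0849, adjusted p 0.011), and neither group overlapped the controls. The shDDX41 #2 call did not hold without shDDX41 #2 D (adjusted p 0.053). IRF9, the DNA-binding subunit of ISGF3 (chr14:24161053-24166565, plus strand), was at 4.66, 5.56 and 6.58 CPM with sh-Control, 10.5, 9.70 and 10.3 CPM with shDDX41 #1 and 6.43, 6.55 and 8.67 CPM with shDDX41 #2. Its 3 shDDX41 #1 libraries lay above every control (log2 fold change 0.86, SE 0.153, adjusted p 0.00034), whereas shDDX41 #2 overlapped the controls and was not called (log2 fold change 0.36, SE 0.157, adjusted p 0.11). STAT2 and IRF9 were both higher with shDDX41 #1 than with shDDX41 #2, by 0.48 (adjusted p 0.00021) and 0.50 (adjusted p 0.012) on the log2 scale. The IRF9 call did not hold without shDDX41 #2 A or B (adjusted p 0.057 to 0.058).

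IRF1 and IRF7 rose with shDDX41 #2. IRF1, a transcription factor induced by interferon gamma (chr5:132481609-132490798, minus strand), was at 33.0, 35.5 and 34.7 CPM with sh-Control, 28.1, 32.6 and 32.6 CPM with shDDX41 #1 and 45.8, 44.5 and 46.4 CPM with shDDX41 #2. The shDDX41 #2 libraries lay above all others (log2 fold change 0.40, SE 0.0756, adjusted p 0.0014), and shDDX41 #1 was not called (log2 fold change -0.15, SE 0.0776, adjusted p 0.13). The difference between the hairpins passed the test (log2 fold change -0.55, SE 0.0765, adjusted p 3.2e-05). IRF7, which drives transcription of the type I interferon genes (chr11:612553-615999, minus strand), was at 8.27, 8.26 and 8.27 CPM with sh-Control, 8.86, 10.2 and 9.95 CPM with shDDX41 #1 and 11.5, 10.6 and 12.8 CPM with shDDX41 #2. It rose with shDDX41 #2 (log2 fold change 0.49, SE 0.116, adjusted p 0.0067), with no overlap with the controls, and its value with shDDX41 #1 was 0.23 (adjusted p 0.13). The hairpins did not differ in IRF7 by this test (log2 fold change -0.26, SE 0.115, adjusted p 0.071). Exons of IRF1 share 1716 bases with the opposite-strand gene C5orf56, and how strand was used in counting is not given in the sources used here.

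The RNA sensors and double-stranded RNA enzymes, 6 genes, had 0 rises and 2 falls with shDDX41 #1 and 3 rises and 0 falls with shDDX41 #2. Over all tested genes, 23.7% were called higher and 24.1% lower with shDDX41 #1, and 11.6% and 13.4% with shDDX41 #2. A list of 6 genes is too small to set against these shares. DDX60L, a DEAD-box helicase paralog of the RIG-I cofactor DDX60 (chr4:168356735-168537786, minus strand), was at 60.2, 70.0 and 62.1 CPM with sh-Control, 53.4, 50.9 and 46.7 CPM with shDDX41 #1 and 82.2, 84.3 and 88.0 CPM with shDDX41 #2. The 3 groups did not overlap, with shDDX41 #1 lowest (log2 fold change -0.35, SE 0.0759, adjusted p 0.0015), sh-Control between and shDDX41 #2 highest (log2 fold change 0.40, SE 0.0742, adjusted p 0.0012). The hairpins differed by -0.75 (SE 0.0754, adjusted p 1.4e-06). EIF2AK2, the kinase PKR that halts translation on sensing double-stranded RNA (chr2:37099210-37157065, minus strand), was at 28.9, 28.4 and 23.1 CPM with sh-Control, 21.04, 19.9 and 17.2 CPM with shDDX41 #1 and 29.8, 33.6 and 33.9 CPM with shDDX41 #2. Every shDDX41 #1 library lay below the controls (log2 fold change -0.47, SE 0.106, adjusted p 0.0021), shDDX41 #2 lay above them without being called (log2 fold change 0.28, SE 0.102, adjusted p 0.061), and the hairpins differed (log2 fold change -0.74, SE 0.105, adjusted p 3.9e-05).

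The sensor IFIH1 (MDA5), which binds long double-stranded RNA, rose with shDDX41 #2 by 0.39 (adjusted p 0.015) and had 0.20 (adjusted p 0.15) with shDDX41 #1. The IFIH1 call did not hold without sh-Control B or shDDX41 #2 A or B (adjusted p 0.051 to 0.068). DDX60 rose with shDDX41 #2 by 0.43 (adjusted p 0.044), with 0.34 (adjusted p 0.074) for shDDX41 #1. The DDX60 call did not hold without sh-Control A, B or D or shDDX41 #2 B or D, or with no filter on low counts or in DESeq2 (adjusted p 0.058 to 0.21). DDX58, which encodes RIG-I, was called in no contrast, with -0.05 and 0.24 for the 2 hairpins. ADAR, which edits adenosine to inosine in double-stranded RNA and was the most abundant of these genes, had -0.20 (adjusted p 0.088) with shDDX41 #1 and 0.09 (adjusted p 0.51) with shDDX41 #2. It was lower with shDDX41 #1 than with shDDX41 #2 (log2 fold change -0.30, SE 0.0943, adjusted p 0.017). That call did not hold without shDDX41 #2 B (adjusted p 0.073). Without shDDX41 #1 D, whose 179 CPM was the lowest of the 9 libraries, the difference was -0.18 (adjusted p 0.039). Reads that map equally to DDX60 and DDX60L could be split or dropped in counting, which is a limit on both.

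**Figure D5:**
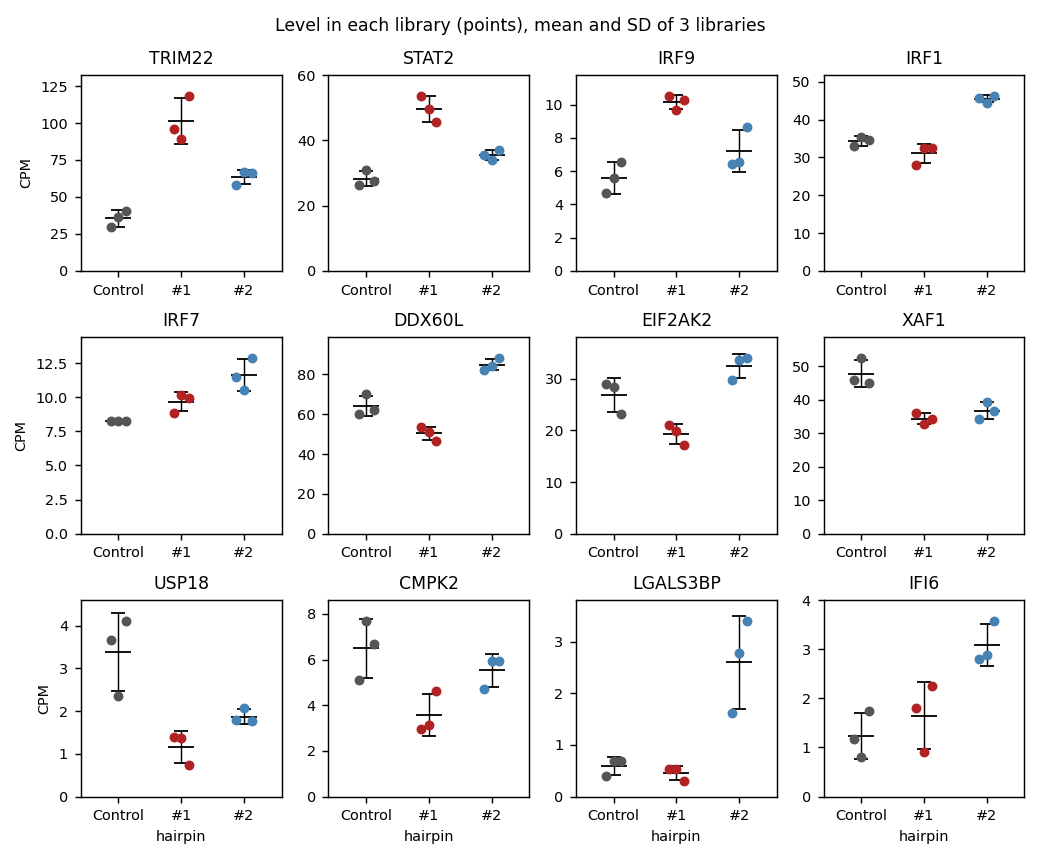
CPM in each library (points) of 12 genes of the set in sh-Control, shDDX41 #1 and shDDX41 #2, with the mean and SD of 3 libraries. TRIM22, STAT2 and IRF9 are highest with shDDX41 #1, IRF1, IRF7, DDX60L, EIF2AK2, LGALS3BP and IFI6 with shDDX41 #2, and XAF1, USP18 and CMPK2 in sh-Control.

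The OAS enzymes, which make the 2-5A messenger that activates RNase L, and the IFIT proteins, which bind foreign RNA, were low, at or below 3.58 CPM in every library. OAS2 was at 0.278, 0.344 and 0.685 CPM with sh-Control, 1.27, 0.778 and 0.789 CPM with shDDX41 #1 and 0.594, 1.34 and 1.58 CPM with shDDX41 #2. A rise was called with shDDX41 #2 (log2 fold change 1.39, SE 0.442, adjusted p 0.032), 1 library of which overlapped the controls, and with shDDX41 #1 it had 1.09 (adjusted p 0.065). The call did not hold without sh-Control A or B or shDDX41 #2 B or D (adjusted p 0.1 to 0.13). OASL, the family member without synthetase activity, rose with shDDX41 #2 by 0.85 (adjusted p 0.044). That call did not hold without sh-Control A or B or shDDX41 #1 A or B or shDDX41 #2 A or D, or in DESeq2 (adjusted p 0.052 to 0.15). OAS1 was called in no contrast and was at a single count in shDDX41 #1 library B, with -1.20 (SE 0.575) for that hairpin.

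IFIT2 was at 0.944, 0.573 and 1.37 CPM with sh-Control, 0.964, 1.26 and 1.70 CPM with shDDX41 #1 and 1.51, 2.13 and 3.21 CPM with shDDX41 #2. It rose with shDDX41 #2 (log2 fold change 1.22, SE 0.348, adjusted p 0.019), all 3 libraries lying above the controls, and had 0.43 (adjusted p 0.38) with shDDX41 #1. The call did not hold without sh-Control A or B or shDDX41 #2 D (adjusted p 0.054 to 0.11). IFIT3, which stabilizes IFIT1 (chr10:89327894-89340971, plus strand), was at 1.499, 1.95 and 1.95 CPM with sh-Control, 1.57, 0.778 and 1.76 CPM with shDDX41 #1 and 2.59, 2.28 and 3.58 CPM with shDDX41 #2. Neither hairpin was called against the control (-0.40 (adjusted p 0.3) and 0.63 (adjusted p 0.099)), but shDDX41 #1 was below shDDX41 #2 with no overlap (log2 fold change -1.03, SE 0.285, adjusted p 0.0078). IFIT1 spread over 0.239 to 1.15 CPM with overlap of all groups, and its SE of 0.569 on the log2 scale for shDDX41 #1 was among the widest of the set.

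Of the membrane proteins, BST2 (tetherin, which holds budding virus at the cell surface) was at 66.8, 62.0 and 72.9 CPM with sh-Control, 63.9, 60.4 and 85.5 CPM with shDDX41 #1 and 88.1, 92.9 and 78.5 CPM with shDDX41 #2. It rose with shDDX41 #2 (log2 fold change 0.36, SE 0.111, adjusted p 0.026), with no overlap with the controls. The call did not hold without sh-Control A or B or shDDX41 #2 A or B (adjusted p 0.069 to 0.12). Its difference between the hairpins, -0.31 (adjusted p 0.033), was -0.48 without shDDX41 #1 D. That difference did not hold without shDDX41 #1 A or B or shDDX41 #2 A or B, or with upper quartile factors (adjusted p 0.067 to 0.14). IFITM3, which blocks virus entry at endosomes (chr11:319669-327537, minus strand), was at 8.38, 7.80 and 6.69 CPM with sh-Control, 5.30, 6.82 and 8.61 CPM with shDDX41 #1 and 12.3, 8.48 and 10.4 CPM with shDDX41 #2. It was lower with shDDX41 #1 than with shDDX41 #2 (log2 fold change -0.58, SE 0.176, adjusted p 0.013), the libraries overlapping by 1 value, and was called against the control with neither (-0.14 (adjusted p 0.55) and 0.44 (adjusted p 0.074)). The call between hairpins did not hold without shDDX41 #1 A or shDDX41 #2 A (adjusted p 0.065 to 0.077). IFITM1 and IFITM2 were called in no contrast. They share 351 exonic bases on 1 strand, and the IFITM genes are close paralogs, so reads between them are uncertain.

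Among the dynamin-like GTPases, MX1, which traps viral nucleoproteins, was at 1.94, 0.688 and 1.63 CPM with sh-Control, 1.87, 1.44 and 3.34 CPM with shDDX41 #1 and 1.84, 4.12 and 5.09 CPM with shDDX41 #2. With shDDX41 #2 it rose (log2 fold change 1.35, SE 0.400, adjusted p 0.022), although library A overlapped the controls, and had 0.63 (adjusted p 0.24) with shDDX41 #1. The MX1 call did not hold without sh-Control B or shDDX41 #2 B or D (adjusted p 0.084 to 0.11). MX2, which acts against nuclear import of HIV (chr21:41361943-41409390, plus strand), was at 5.88, 4.87 and 6.42 CPM with sh-Control, 4.10, 4.49 and 4.00 CPM with shDDX41 #1 and 4.65, 6.40 and 4.79 CPM with shDDX41 #2. It fell with shDDX41 #1 (log2 fold change -0.45, SE 0.170, adjusted p 0.04), all 3 libraries below the controls, and had -0.11 (adjusted p 0.65) with shDDX41 #2. The MX2 call did not hold without sh-Control A or D or shDDX41 #1 A, B or D, or with upper quartile factors or in DESeq2 (adjusted p 0.055 to 0.14). GBP2, a guanylate-binding protein of the interferon gamma response, rose with shDDX41 #2 by 0.64 (adjusted p 0.0097) and was lower with shDDX41 #1 than with shDDX41 #2, at -0.42 (adjusted p 0.042). The first GBP2 call did not hold without shDDX41 #2 D (adjusted p 0.051). The second did not hold without shDDX41 #1 A or B or shDDX41 #2 A, B or D, or with upper quartile factors (adjusted p 0.053 to 0.17). GBP2 shares 621 exonic bases with GBP7 on the same strand.

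The ISG15 system attaches the ubiquitin-like protein ISG15 to other proteins and removes it. The modifier and its protease moved in opposite directions with shDDX41 #2. ISG15 (chr1:1001138-1014540, plus strand) was at 6.99, 4.47 and 6.74 CPM with sh-Control, 8.20, 6.88 and 9.16 CPM with shDDX41 #1 and 8.43, 9.02 and 9.09 CPM with shDDX41 #2. With shDDX41 #2 it rose (log2 fold change 0.54, SE 0.162, adjusted p 0.024), above every control, and had 0.41 (adjusted p 0.053) with shDDX41 #1. The call did not hold without sh-Control B or shDDX41 #2 B or D (adjusted p 0.076 to 0.099). USP18, which cleaves ISG15 from its targets and dampens the type I receptor (chr22:18149899-18177397, plus strand), was at 3.66, 2.35 and 4.11 CPM with sh-Control, 1.39, 1.38 and 0.728 CPM with shDDX41 #1 and 1.78, 2.08 and 1.76 CPM with shDDX41 #2. It fell 2.89-fold with shDDX41 #1 (log2 fold change -1.53, SE 0.279, adjusted p 0.00038) and 1.80-fold with shDDX41 #2 (log2 fold change -0.85, SE 0.254, adjusted p 0.024), with all 6 libraries below all 3 controls. The shDDX41 #2 call did not hold without sh-Control A or D or shDDX41 #2 A, B or D (adjusted p 0.053 to 0.11).

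UBE2L6, the conjugating enzyme, and HERC5 and HERC6, a ligase for ISG15 and its relative, were not called against sh-Control with either hairpin. They were lower with shDDX41 #1 than with shDDX41 #2, with log2 differences for UBE2L6 of -0.59 (adjusted p 0.016), HERC5 of -1.33 (adjusted p 0.021) and HERC6 of -0.75 (adjusted p 0.037). The UBE2L6 call did not hold without shDDX41 #1 A (adjusted p 0.062). HERC5 passed the filter only through shDDX41 #2, and with no filter its difference was -1.34 (adjusted p 0.0065). The p-values with no filter are not on the scale of the main fit. The HERC5 call did not hold without shDDX41 #1 A or B or shDDX41 #2 D (adjusted p 0.055 to 0.076). The HERC6 call did not hold without shDDX41 #1 A or D or shDDX41 #2 A or D (adjusted p 0.067 to 0.15). HERC5 was at only 0.287 to 1.58 CPM.

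Of the 3 ADP-ribosyltransferases and DTX3L, PARP14 was called. PARP14, which adds single ADP-ribose units to proteins (chr3:122680618-122730840, plus strand), was at 41.9, 44.0 and 39.8 CPM with sh-Control, 36.6, 38.3 and 35.6 CPM with shDDX41 #1 and 33.4, 33.6 and 34.4 CPM with shDDX41 #2. The 6 knockdown libraries lay below the controls, at log2 fold change -0.31, SE 0.0704, adjusted p 0.0054 for shDDX41 #2 and log2 fold change -0.18, SE 0.0704, adjusted p 0.041 for shDDX41 #1. The shDDX41 #1 call did not hold without sh-Control A or B or shDDX41 #1 A or D or shDDX41 #2 A, B or D, or with upper quartile factors or with no filter on low counts or in DESeq2 or with only the 6 libraries compared (adjusted p 0.056 to 0.2). PARP9 and its ubiquitin ligase partner DTX3L, a divergent gene pair whose exons share 217 bases, had -0.31 and -0.24 with shDDX41 #1 and -0.17 and 0.02 with shDDX41 #2. Neither was called, nor was PARP12.

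SAMD9 and SAMD9L, neighbouring genes for growth-restraining antiviral proteins that are mutated in inherited myeloid disease, gave 1 call. SAMD9 rose with shDDX41 #2 by 0.33 (adjusted p 0.04), from 20.5 ± 1.73 to 25.7 ± 1.29 CPM (SD, n = 3). The call did not hold without sh-Control A or D or shDDX41 #2 A, B or D (adjusted p 0.06 to 0.14). SAMD9L was called in no contrast.

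The head-to-head pair CMPK2 and RSAD2 was split. CMPK2, a mitochondrial nucleotide kinase (chr2:6840570-6866635, minus strand), was at 5.11, 7.68 and 6.69 CPM with sh-Control, 2.95, 3.11 and 4.61 CPM with shDDX41 #1 and 4.70, 5.95 and 5.94 CPM with shDDX41 #2. It fell with shDDX41 #1 (log2 fold change -0.87, SE 0.201, adjusted p 0.0024), below every control, and had -0.23 (adjusted p 0.4) with shDDX41 #2. The hairpins differed by -0.64 (adjusted p 0.018). That call did not hold without shDDX41 #1 A or B or shDDX41 #2 B or D (adjusted p 0.059 to 0.071). RSAD2, which encodes viperin, had 0.77 (adjusted p 0.086) and 0.78 (adjusted p 0.12) and was at 0.459 to 1.35 CPM.

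TRIM22 had the largest rise with shDDX41 #1 among the 43 tested genes. This nuclear TRIM protein is known as an interferon-induced antiviral factor (chr11:5689689-5737089, plus strand). It was at 29.6, 36.8 and 40.8 CPM with sh-Control, 96.0, 89.5 and 119 CPM with shDDX41 #1 and 58.2, 66.7 and 66.1 CPM with shDDX41 #2. The groups did not overlap, and it rose 2.84-fold with shDDX41 #1 (log2 fold change 1.504, SE 0.117, adjusted p 1.2e-07) and 1.78-fold with shDDX41 #2 (log2 fold change 0.83, SE 0.118, adjusted p 0.00014), more with shDDX41 #1 (log2 fold change 0.67, SE 0.113, adjusted p 0.00019). SP110, a nuclear body protein (chr2:230167293-230225729, minus strand), was at 11.6, 11.3 and 14.7 CPM with sh-Control, 15.9, 15.98 and 15.8 CPM with shDDX41 #1 and 15.8, 17.4 and 17.6 CPM with shDDX41 #2. It rose with both hairpins (0.34 (adjusted p 0.023) and 0.43 (adjusted p 0.011)), and no knockdown library overlapped the controls. The shDDX41 #1 call did not hold without sh-Control A or B (adjusted p 0.077 to 0.083).

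The widest gap between the hairpins was in LGALS3BP, a secreted galectin-binding glycoprotein (chr17:78971238-78980109, minus strand). It was at 0.389, 0.688 and 0.685 CPM with sh-Control, 0.542, 0.539 and 0.303 CPM with shDDX41 #1 and 1.62, 2.78 and 3.39 CPM with shDDX41 #2. The shDDX41 #2 libraries lay above all others, 4.36-fold over sh-Control (log2 fold change 2.12, SE 0.344, adjusted p 0.00044), and shDDX41 #1 overlapped the controls (log2 fold change -0.34, SE 0.464, adjusted p 0.57). The hairpins differed by -2.47 (SE 0.367, adjusted p 6.1e-05). LGALS3BP passed the filter only through shDDX41 #2. With no filter, where all genes with a count were tested, the values were 2.13 (adjusted p 3.5e-07) against sh-Control and -2.47 (adjusted p 8.9e-09) between the hairpins. The p-values of that fit are not on the scale of the main fit. DDX41 with shDDX41 #1 had an adjusted p of 9.9e-52 there and 4.1e-12 in the main fit, at a log2 fold change of -3.29 in both. The control and shDDX41 #1 values rest on few counts, from 5 in the lowest library.

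IFI6, an interferon-induced membrane protein (chr1:27666061-27672218, minus strand), was at 1.17, 0.803 and 1.74 CPM with sh-Control, 1.81, 0.898 and 2.24 CPM with shDDX41 #1 and 2.81, 2.88 and 3.58 CPM with shDDX41 #2. Its level rose with shDDX41 #2 (log2 fold change 1.30, SE 0.309, adjusted p 0.0067), above every other library, and shDDX41 #1 overlapped the controls (log2 fold change 0.40, SE 0.341, adjusted p 0.35). The hairpins differed by -0.90 (adjusted p 0.022). That call did not hold without shDDX41 #1 B or shDDX41 #2 D (adjusted p 0.083 to 0.1). XAF1, a partner of the apoptosis inhibitor XIAP (chr17:6755447-6775647, plus strand), was at 46.1, 52.4 and 45.1 CPM with sh-Control, 36.0, 32.7 and 34.4 CPM with shDDX41 #1 and 34.3, 39.3 and 36.7 CPM with shDDX41 #2. It fell with shDDX41 #1 (log2 fold change -0.48, SE 0.0818, adjusted p 0.00023) and shDDX41 #2 (log2 fold change -0.38, SE 0.0810, adjusted p 0.0035), with all 6 libraries below the controls. LY6E had -0.15 (adjusted p 0.07) and -0.18 (adjusted p 0.051), and IFI35 had -0.05 (adjusted p 0.81) and 0.07 (adjusted p 0.75), neither called.

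Compared directly, shDDX41 #1 was higher than shDDX41 #2 for 3 of the 43 genes (TRIM22, STAT2 and IRF9) and lower for 14 (6.98% and 32.6%), where 24.6% and 24.2% of all tested genes were called in those directions. The median log2 difference of the 43 was -0.30, beside 0.01 over all tested genes. The 14 lower genes were DDX60L, IRF1, EIF2AK2, LGALS3BP, IFIT3, IFITM3, UBE2L6, ADAR, CMPK2, HERC5, IFI6, BST2, HERC6 and GBP2. LGALS3BP and HERC5 passed the filter only through shDDX41 #2, so their part in this count rests on that choice. In a fit of only the genes with at least 10 counts in every library, 3 of 37 were higher and 12 lower. These are 8.11% and 32.4%, beside 25.7% and 25.4% of all genes in that fit. Without shDDX41 #2 D, 9 of 44 genes (20.5%) were lower, beside 20.6% of all genes. Without shDDX41 #1 A, 10 of 46 (21.7%) were lower, beside 21.8%. DDX60L was the only gene of the set that was called in opposite directions by the 2 hairpins against sh-Control.

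The 8 genes that were not tested had 0 to 56 counts summed over the 9 libraries and did not exceed 0.849 CPM in any. They were GBP1, the OAS family member OAS3, IFIT5, the exonuclease ISG20, IFI27, IFI44, IFI44L and EPSTI1. IFI44L was at 0.111, 0.229 and 0.105 CPM with sh-Control, 0.121, 0.120 and 0.182 CPM with shDDX41 #1 and 0.594, 0.446 and 0.727 CPM with shDDX41 #2, the shDDX41 #2 libraries being above the others by a few counts each. IFI27 was at 0.111, 0.0573 and 0 CPM with sh-Control, 0.0603, 0.120 and 0.182 CPM with shDDX41 #1 and 0.108, 0.298 and 0.424 CPM with shDDX41 #2. All 8 have a promoter in the table, and all 8 hold the response element letters.

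A further 96 genes of the pathway outside the set were listed, of which 65 were tested. With shDDX41 #1, 21 were higher and 17 lower, and with shDDX41 #2, 18 were higher and 3 lower. These are 32.3% and 26.2% beside 23.7% and 24.1% of all tested genes for shDDX41 #1, and 27.7% and 4.62% beside 11.6% and 13.4% for shDDX41 #2. The groups of this list below are small, and their counts are given with no test. Of 6 receptor subunits, 3 rose and 1 fell with shDDX41 #1, and 1 rose with shDDX41 #2. IFNAR2, the signaling subunit of the type I receptor, rose with both (0.26 (adjusted p 0.0059) and 0.43 (adjusted p 0.0003)), and its partner IFNAR1 fell with shDDX41 #1 (-0.31 (adjusted p 0.0027)) and had 0.05 (adjusted p 0.63) with shDDX41 #2. Of the kinase genes, JAK1 and TYK2 fell with shDDX41 #1 (-0.59 (adjusted p 1.2e-05) and -0.32 (adjusted p 0.0023)), and JAK2 rose (0.25 (adjusted p 0.037)). The JAK2 call did not hold without sh-Control A or D or shDDX41 #1 A or B or shDDX41 #2 A, B or D, or with only the 6 libraries compared (adjusted p up to 0.17).

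Of the 4 other interferon regulatory factor genes tested, 2 rose and 2 fell with shDDX41 #1, and 3 rose with shDDX41 #2. Of all tested genes, 23.7% were called higher and 24.1% lower with shDDX41 #1, and 11.6% and 13.4% with shDDX41 #2. A list of 4 genes is too small to set against these shares. IRF8, a factor of the monocytic lineage, was at 392, 403 and 439 CPM with sh-Control, 738, 761 and 776 CPM with shDDX41 #1 and 470.0, 513 and 509 CPM with shDDX41 #2. It rose with both hairpins (log2 fold change 0.88, SE 0.0656, adjusted p 7.9e-08 and log2 fold change 0.27, SE 0.0653, adjusted p 0.0067), with no overlap between any of the groups. IRF5 rose with both (0.36 (adjusted p 0.0028) and 0.32 (adjusted p 0.013)). The IRF5 call with shDDX41 #2 did not hold without sh-Control D or shDDX41 #2 B (adjusted p up to 0.085). IRF3, which switches on IFNB1 after sensing, fell with shDDX41 #1 (-0.43 (adjusted p 0.0017)) and had -0.10 (adjusted p 0.45) with shDDX41 #2. IRF2, a repressor at IRF1 sites, fell with shDDX41 #1 (-0.31 (adjusted p 0.016)) and rose with shDDX41 #2 (0.34 (adjusted p 0.013)). The fall did not hold without shDDX41 #1 A or B, or with upper quartile factors (adjusted p up to 0.066). The rise did not hold without shDDX41 #2 D (adjusted p up to 0.074).

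Of 11 sensing adaptors and kinases tested, 3 rose and 3 fell with shDDX41 #1, and 1 rose and 2 fell with shDDX41 #2. The shares with shDDX41 #1, 27.3% in each direction, lay near those of all tested genes. Those with shDDX41 #2 were 9.09% and 18.2%, beside 11.6% and 13.4% of all tested genes. MAVS, the adaptor of RIG-I and MDA5, rose with shDDX41 #1 (0.42 (adjusted p 8.5e-05)) and had 0.13 (adjusted p 0.16) with shDDX41 #2, and the kinase gene TBK1 was not called (0.15 and 0.07). Of 8 negative regulators, 3 rose and 2 fell with shDDX41 #1 (37.5% and 25.0%, beside 23.7% and 24.1% of all tested genes). With shDDX41 #2, 1 rose (12.5% beside 11.6%). SOCS3, an inhibitor of JAK signaling, rose 2.03-fold with shDDX41 #1 (log2 fold change 1.02, SE 0.208, adjusted p 0.00095), while the phosphatase gene PTPN11 fell (log2 fold change -0.79, SE 0.0614, adjusted p 1.2e-07). Their values with shDDX41 #2 were -0.17 (adjusted p 0.61) and -0.03 (adjusted p 0.76). Of 31 other interferon-induced genes tested, 9 rose and 7 fell with shDDX41 #1 (29.03% and 22.6%), and 11 rose and 1 fell with shDDX41 #2 (35.5% and 3.23%), among them TDRD7 (0.68 (adjusted p 2.5e-06) and 0.60 (adjusted p 3.7e-05)) and SLFN5 (0.98 (adjusted p 0.005) and 1.20 (adjusted p 0.0024)), which rose with both.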

How the data were processed

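RNA-seq counts of 9 MOLM13 libraries, 3 for each of sh-Control, shDDX41 #1 and shDDX41 #2, were grouped by their labels. The authors deposited raw read counts by gene symbol, as whole numbers with no normalization, and 0 columns were left unmapped. The labels name a stranded mRNA kit and the study's methods an unstranded one. The submitters' processing notes list FastQC 0.11.7, HISAT2 2.0.5 and featureCounts 1.5.2, and the builds mm10 and hg38 with no role. The annotation, strand setting and treatment of multi-mapping reads are not given in the sources used here.

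Counts were fitted in R 4.3.3 with edgeR 4.0.16 (TMM factors 0.963 to 1.02, filterByExpr with a minimum count of 10, quasi-likelihood F-test, 1 coefficient per group, all 9 libraries). Benjamini-Hochberg adjustment ran over all 12712 genes in each of 3 contrasts. CPM use TMM-scaled library sizes. An exact permutation test of 3 against 3 libraries cannot go below p = 0.1 and was not used. The main edgeR fit was tested on simulated data, for shDDX41 #1 against sh-Control only. The alternative fits were not tested in this way. Counts of 16385238 to 20510032 per library set the precision, and replicates differed by more than counting noise (chi-square per degree of freedom 2.46 to 19.2). Alternatives were DESeq2 1.42.0 size factors and Wald test, upper quartile factors, other filters, 6 libraries, a replicate block and leaving out each library.

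Positions, lengths and overlaps came from GENCODE release 29 (GRCh38), and promoters from RefSeq (GRCh38.p14). The replicate letters showed no consistent pairing of the libraries. The set, the lists and the rule for named genes were chosen with earlier results of these data known. By that rule, up to 6 called genes of the set with the smallest adjusted p per direction and contrast were given in every library, and others by role. Pathway genes given with values were chosen after their values were seen. Some items are not reported here.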

Additional observations from a re-analysis of the deposited data

Results flagged for a closer look

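DDX60L, IRF2 and UNC93B1 stood out because each was called in opposite directions by the hairpins against the same sh-Control libraries and the difference itself passed edgeR's test. DDX60L had log2 fold changes of -0.35 with shDDX41 #1 and 0.40 with shDDX41 #2, a difference of -0.75 (adjusted p 1.4e-06). IRF2 was at 18.6, 18.5 and 18.0 CPM with sh-Control, 14.2, 14.1 and 16.3 CPM with shDDX41 #1 and 22.5, 22.4 and 25.1 CPM with shDDX41 #2. Its log2 fold changes were -0.31 and 0.34, a difference of -0.65 (adjusted p 5.1e-05). The IRF2 call with shDDX41 #1 did not hold without shDDX41 #1 A or B, or with upper quartile factors (adjusted p up to 0.066). That with shDDX41 #2 did not hold without shDDX41 #2 D (adjusted p up to 0.074). UNC93B1, which escorts Toll-like receptors to endosomes, was at 93.8, 92.8 and 88.8 CPM with sh-Control, 121, 129 and 118 CPM with shDDX41 #1 and 72.0, 72.5 and 77.8 CPM with shDDX41 #2. Its log2 fold changes were 0.42 and -0.31, a difference of 0.73 (adjusted p 4.2e-07). In each gene the 3 shDDX41 #1 libraries lay on 1 side of the shDDX41 #2 libraries without overlap. With 3 libraries a group, single libraries were not screened as outliers.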

How the results depend on the processing

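Of the 49 calls of genes of the set over the 3 contrasts, 24 held under each of the up to 16 alternatives that gave a value, and 25 were lost under at least 1. With upper quartile factors, 8 genes (18.6%, beside 30.3% of all genes) rose with shDDX41 #1 and the median was 0.026. Leaving out 1 library at a time moved the shDDX41 #1 median from -0.11 (without shDDX41 #1 D) to 0.037 (without shDDX41 #1 B), so its sign rests on single libraries. The rises with shDDX41 #2 ranged from 9 (20.5%, beside 7.54% of all genes, without shDDX41 #2 D) to 21 (47.7% beside 16.2%, without shDDX41 #1 D), with 11 (23.9% beside 8.23%) without sh-Control B. When 1 library was left out, the genes lower with shDDX41 #1 than with shDDX41 #2 ranged from 9 (20.5% beside 20.6%, without shDDX41 #2 D) to 16 (36.4% beside 24.8% without shDDX41 #1 D). With no filter on low counts they were 20 of 50 (40.0% beside 16.6%). IFITM3 with shDDX41 #1, which was not called, ranged from -0.32 (without shDDX41 #1 D) to 0.024 (without shDDX41 #1 A). The replicate letters showed no consistent pairing of the libraries. The correlation of same-letter deviations was -0.06 to 0.24, and 1 library of 9 correlated best with its own letter in both other groups. The 2 of 9 pairs over 0.1 were sh-Control with shDDX41 #1, for letters B (0.16) and D (0.24). A replicate block gave 5 genes higher and 10 lower with shDDX41 #1 (11.6% and 23.3%, beside 24.9% and 25.1% of all genes), 19 and 4 with shDDX41 #2 (44.2% and 9.30% beside 13.3% and 14.8%), and 3 and 17 between the hairpins (6.98% and 39.5% beside 25.7% and 25.5%), with medians of -0.05, 0.36 and -0.30. Of 1066 values of single genes under an alternative, 956 kept direction and side of the threshold, 96 lost the call, 13 gained one and 1 changed sign. The causes of these changes were not tested. Depth limits the 8 untested genes and those under 1 CPM. With no filter on low counts, 20 genes rose with shDDX41 #2 (40.0% beside 8.68% of all genes).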
